A study of Homo sapiens with 18 samples.

Results

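RNA of MOLM-13 cells held for 24 h with dTRIM24 was set against RNA of the same line held for 24 h with IACS-9571. MOLM-13 is a human acute monocytic leukaemia line that carries an MLL fusion and a mutated FLT3. The comparison rests on 6 of the 18 samples of the series, 3 labelled dTRIM24 and 3 labelled IACS-9571, and 3 samples given the solvent DMSO for 24 h served as the common point of reference. The same 3 conditions were also sampled at 4 h, and those values are given where they bear on a 24 h value. Titles and time points place these samples at 24 h. The labels' general treatment text gives that duration for every sample of the series, those titled 4 h included. The labels state no doses, so it is not known whether the compounds were matched in concentration. Cells were grown in RPMI with fetal bovine serum, and sample input was set by cell number before ERCC spike-in RNAs were added.

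Each gene has 1 deposited mean FPKM per group (by definition fragments per length of transcript and per size of library), which the authors made from 3 samples. The labels do not say that these came from separate cultures. With 1 value per group there is no replicate error, no difference below was tested, and a difference may be no larger than the spread between samples. Read depth is unknown. Of 23621 gene rows, 11115 had at least 1 FPKM with either compound and were compared as dTRIM24 minus IACS-9571 on the log2(FPKM + 1) scale, which understates the change of low genes. At the edge of this floor, ANG was kept at 1 FPKM with dTRIM24 and 0.645 FPKM with IACS-9571, and HS3ST3B1 was left out at 0.99986 FPKM with dTRIM24 and 0.973 FPKM with IACS-9571. A row is called past 2-fold from a difference of 1 on this scale, and values relative to the median are given after subtraction of the median difference of all 11115 rows. Names farther down were chosen by rules of size and by gene lists with earlier results of these data known, so counts over a list describe these means and support no inference about it.

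TRIM24 is a chromatin reader whose plant homeodomain finger and bromodomain bind histone H3 tails, the bromodomain on acetylated lysine. IACS-9571 occupies the bromodomain of TRIM24 and that of BRPF1, the scaffold of the MOZ and MORF acetyltransferase complexes, and leaves the rest of either protein in place. dTRIM24 joins a ligand of this bromodomain to a ligand of VHL, the substrate-binding subunit of a cullin ubiquitin ligase, which brings TRIM24 to the ligase for ubiquitination and removal by the proteasome. The comparison therefore sets a compound that can remove the protein against one that blocks its acetyl-lysine pocket. Protein was not measured here.

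The cells had the RNAs of an immature monocytic line under both compounds. Of 14 markers of such cells 13 were kept, with a summed level of 1660.5 FPKM with dTRIM24, 1236 FPKM with IACS-9571 and 1394 FPKM with DMSO. The largest part of each sum was ELANE, a granule protease, at 925.5, 619.8 and 685 FPKM in the same order. The sums thus largely follow this gene and are no measure of monocytic identity. Of the lists for other cells, 2 of 11 T and NK markers, 1 of 7 B cell markers, 1 of 13 erythroid and megakaryocyte markers and 2 of 10 fibroblast and epithelial markers were kept. The lineage-defining CD3E and COL1A1 were not among those kept, while NKG7, which myeloid cells can also express, had 24.1, 16.5 and 20.4 FPKM with dTRIM24, IACS-9571 and DMSO. PAX5, of the B cell list, had 5.79, 4.24 and 3.70 FPKM in the same order. KRT18, of the fibroblast and epithelial list, had 27.3, 22.1 and 24.6 FPKM. In bulk RNA of this kind, fewer cells of a type and less RNA per cell cannot be told apart.

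Nearly every gene stood higher with dTRIM24 than with IACS-9571. In all, 10906 of 11115 rows (98.1%) had a difference above 0, and the median difference was 0.28. The kept rows had a median of 12.7 FPKM with dTRIM24, 10.0 FPKM with IACS-9571 and 10.2 FPKM with DMSO. At 4 h the same medians were 12.3, 12.3 and 12.3 FPKM. The 24 h IACS-9571 and DMSO columns were thus the lower ones, and dTRIM24 at 24 h stood near the 4 h level. Column totals differed in the same way, with 978765 FPKM for dTRIM24, 771830 FPKM for IACS-9571 and 821859 FPKM for DMSO at 24 h. Part of each total lay in the short rows MIR1244-2 and MIR1244-3. These had 100241 and 100478 FPKM with dTRIM24, 67749 and 68229 FPKM with IACS-9571 and 77231 and 78171 FPKM with DMSO. The 25 spike-ins with at least 5 FPKM in every column had a median difference of -0.03 with an SD of 0.13, and a range of -0.47 to 0.12. This SD reflects single RNAs between 2 means and is no replicate error. Many of the list medians below lie closer to the all-gene median than this value. Spike-ins that are nearly level beside unequal totals are what scaling to the spike-ins would give, so these FPKM may not be scaled to library size alone; no source used here states it. Whether the shift is one of RNA per cell or of scaling was not tested.

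The shift was even across expression and uneven across base composition. Medians were 0.24 for genes of 1 to 5 FPKM and 0.30 for genes over 100 FPKM. Over 10 equal bins of genes ordered by the GC content of their transcripts, the median difference climbed step by step to 0.48 in the most GC-rich bin, against 0.20 in the most AT-rich. Spearman's rho of difference and GC was 0.61 across 10099 genes (a description over genes, which are not independent replicates), and rho with transcript length was -0.03. At 4 h the order ran the other way, with 0.07 in the most AT-rich bin and -0.13 in the most GC-rich. Set against DMSO at 24 h, the dTRIM24 medians ran between 0.15 and 0.48 over the same bins, while the IACS-9571 medians stayed between -0.05 and 0.02. Both of these use the same DMSO column. The gradient was thus seen with dTRIM24 set against either column at 24 h, and some gene groups below are also given with a cubic GC trend taken out. Counts of the groups given without this step can change with it, in either direction. Above the all-gene median lay 7 of 14 NF-kB and 10 of 19 p53 target genes, but above 0 without the trend 4 and 7. For Mediator, 16 of 31 became 22, and for the unfolded protein response 13 of 20 became 16. How much of any group's value comes from this gradient was not tested beyond removing the trend.

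**Figure D1:**
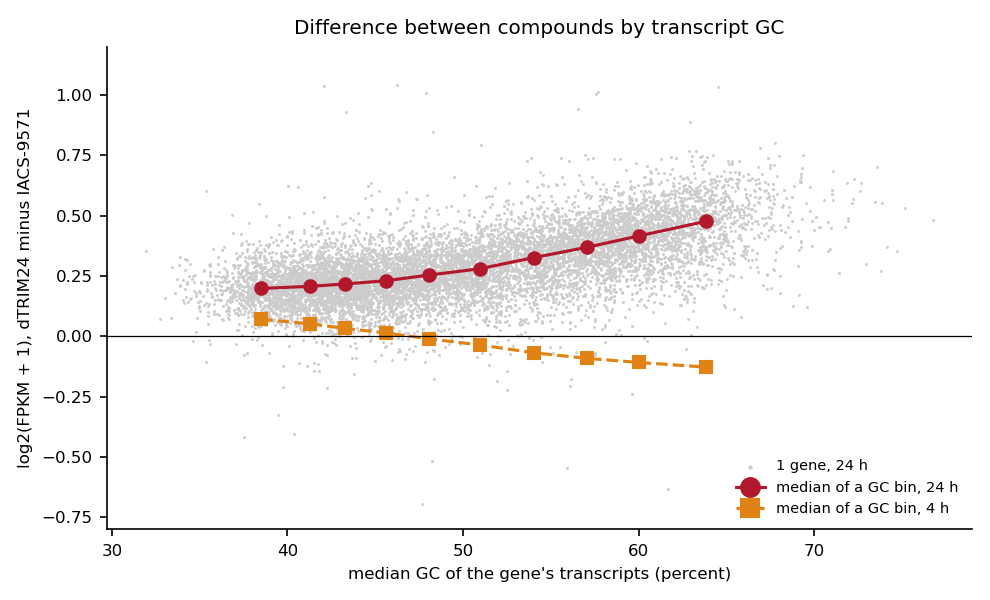
Difference in log2(FPKM + 1), dTRIM24 minus IACS-9571, against the median GC content of each gene's transcripts (percent). Grey points are single genes at 24 h, with 4 genes outside the plotted range of -0.8 to 1.2. Red circles are medians of 10 bins of genes at 24 h and orange squares the same at 4 h. The 24 h medians climb with GC content and the 4 h medians decline.

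Transcripts of the compounds' targets did not stand apart from this shift. TRIM24 mRNA had 17.2 FPKM with dTRIM24, 14.0 FPKM with IACS-9571 and 14.0 FPKM with DMSO, a difference of 0.28 between the compounds that equals the all-gene median. TRIM33, a relative that partners TRIM24, had 9.60, 7.86 and 7.66 FPKM in the same order (0.26). TRIM28, the corepressor of KRAB zinc finger proteins, had 160.2, 113 and 113 FPKM (0.50, and 0.10 with the GC trend taken out). Since a degrader removes protein, mRNA of the target is no check of the labels.

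The BRPF1 complexes showed the same shift. Of their 9 genes, 6 lay above the all-gene median, where 50% of all rows do by definition, and their median difference was 0.35 (0.04 with the GC trend taken out). BRPF1 itself had 8.91 FPKM with dTRIM24, 6.08 FPKM with IACS-9571 and 5.57 FPKM with DMSO, and its paralogues BRD1 and BRPF3 differed by 0.44 and 0.36. The catalytic subunits KAT6A, KAT6B and KAT7 differed by 0.33, 0.41 and 0.21, and the smaller subunits ING4, ING5 and MEAF6 by 0.19, 0.35 and 0.23. VHL, the receptor that dTRIM24 recruits, had 13.9 FPKM with dTRIM24, 9.04 FPKM with IACS-9571 and 6.94 FPKM with DMSO. Its difference of 0.57 lay 0.29 above the all-gene median, and 0.33 with the GC trend taken out. TCEB2 (elongin B), an adaptor of the same ligase, had 178, 124 and 123 FPKM, and CDC34, a ubiquitin-conjugating enzyme of cullin ligases, 33.1, 24.3 and 23.1 FPKM. Of 7 kept genes of this ligase list, 4 lay above the all-gene median. The other members, TCEB1, CUL2 and RBX1, lay below it, at -0.04, -0.08 and -0.07. With the GC trend taken out, 2 of the 5 members with a GC value were above 0, and CDC34 was at -0.001.

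Rows past 2-fold were few and mostly not mRNAs. With dTRIM24, 99 rows were higher (0.891% of 11115) and 30 were lower (0.27%) than with IACS-9571 as deposited. Relative to the median, 76 were higher (0.684%) and 32 lower (0.288%). Small RNAs, picked by name, made up 76 of the 99 and 28 of the 30, although they are 163 of the rows. A further 7 higher rows were RNAs without a poly(A) tail, and 4 higher and 2 lower rows were read-through genes. Of the remaining 10885 rows, 12 were higher and 0 were lower, and relative to the median 6 were higher and 0 lower. No test was run, so no count at an unadjusted p can be set beside these zeros.

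Small RNAs scattered widely in both directions. Their median difference was 0.70 and the SD of their differences 3.06, against 0.16 for the 10885 other rows. SNORD33, a C/D box RNA that guides ribosomal RNA methylation, had 656 FPKM with dTRIM24, 0.0915 FPKM with IACS-9571 and 748 FPKM with DMSO. SNORD35B had 421, 0.0891 and 329 FPKM and SNORD32A 296, 0.0941 and 143 FPKM in the same order, so at 24 h these were high with dTRIM24 and DMSO and near 0.1 FPKM with IACS-9571. SNORD99 had 219 FPKM with dTRIM24 against 0.0989 FPKM with IACS-9571 and 0.104 FPKM with DMSO, so this one was high with dTRIM24 and in neither other group. In the other direction, SNORD45C had 0.102 FPKM with dTRIM24, 379 FPKM with IACS-9571 and 0.105 FPKM with DMSO. SNORD116-14, of the imprinted Prader-Willi region, had 0.104, 42.6 and 219.7 FPKM. These patterns were not seen at 4 h. SNORD33 then had 601, 252 and 632 FPKM with dTRIM24, IACS-9571 and DMSO, SNORD35B 223, 223 and 153 FPKM, and SNORD32A 409, 462 and 0.0946 FPKM. SNORD116-14 had 51.9, 0.103 and 40.5 FPKM, and SNORD99 and SNORD45C stood near 0.1 FPKM in every group. Of the 104 small RNA rows past 2-fold at 24 h, 66 stood under 0.2 FPKM with one of the compounds, close to the lowest values of the table. RNAs of this size are short for the method: the 152 rows with a length in the annotation had a median of 116 bases and a range of 64 to 353.

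Most of these RNAs are cut from introns of longer genes, and the host genes did not follow them. An annotated host on the same strand was found for 109 rows, in 80 host genes, whose median difference was 0.29, with a range of 0.13 to 1.03. For the 54 rows past 2-fold higher the 43 hosts had a median of 0.29 and none was past 2-fold, and for the 14 rows past 2-fold lower the 14 hosts had a median of 0.26. RPL13A, a ribosomal protein gene that hosts SNORD33 and SNORD32A, had 1497 FPKM with dTRIM24 and 1214 FPKM with IACS-9571 (0.30). One host was past 2-fold, SNHG9, with 60.2 FPKM with dTRIM24, 28.9 FPKM with IACS-9571 and 48.1 FPKM with DMSO, while its guest SNORA78, an H/ACA RNA, ran the other way at 0.104, 11.1 and 18.4 FPKM.

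**Figure D2:**
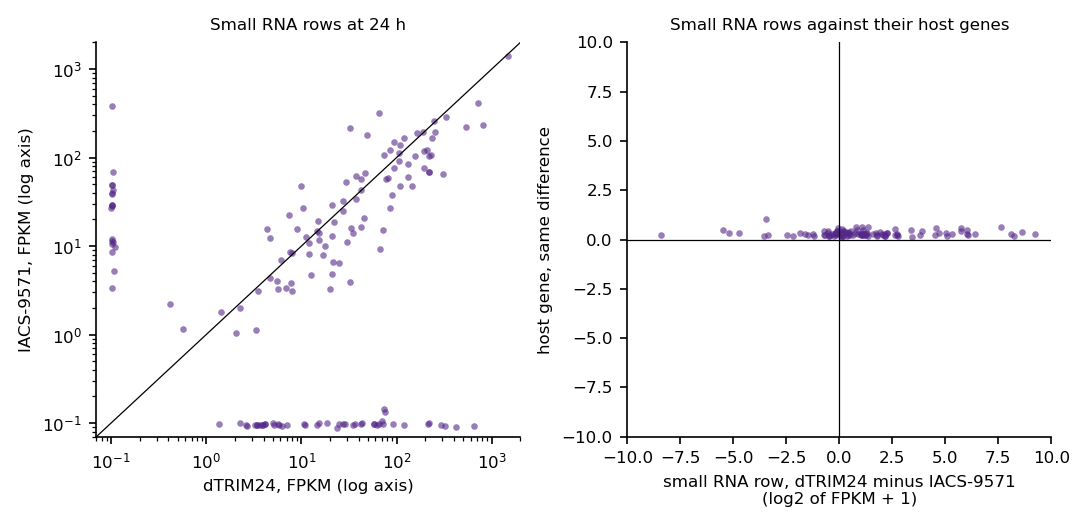
Left, FPKM of the 163 small RNA rows at 24 h with dTRIM24 (horizontal, log axis) and IACS-9571 (vertical, log axis), with the line of equal values. MIR1244-2, MIR1244-3, SNORD76 and SNORD87, the rows with the most FPKM with dTRIM24, lie beyond the plotted range and are not drawn. Right, difference of log2(FPKM + 1) of the small RNA rows against that of their host genes, on equal scales. Rows near 0.1 FPKM with one compound form the bands along both axes at left, and the hosts at right stay between 0.13 and 1.03 while their guests spread from under -8 to over 9.

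MicroRNA hairpins show how such rows behave. These sequences (RefSeq, GRCh38.p14, with the seed at bases 2 to 8 in capitals) are mature arms of the hairpins named next, and no pair of them shares a seed.
hsa-miR-29c-3p: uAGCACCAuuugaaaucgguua
hsa-miR-221-3p: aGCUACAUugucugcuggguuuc
hsa-miR-196b-5p: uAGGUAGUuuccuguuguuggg
hsa-miR-941: cACCCGGCugugugcacaugugc
The rows count reads over the hairpin locus and do not measure these mature arms of 22 or 23 bases. MIR29C, whose mature RNA is known to repress collagen and DNA methyltransferase mRNAs, had 307 FPKM with dTRIM24, 65.6 FPKM with IACS-9571 and 0.104 FPKM with DMSO. MIR221, linked to growth control through the CDK inhibitor p27, had 18.5, 0.0993 and 0.104 FPKM. MIR196B, which lies in the HOXA cluster and is abundant in MLL-fusion leukaemia, ran the other way with 49.1, 178 and 0.103 FPKM, while HOXA9 beside it had 31.8 FPKM with dTRIM24 and 25.4 FPKM with IACS-9571. MIR941-3 and MIR941-4 had 27.6 and 4.14 FPKM with dTRIM24 and both had 0.0980 FPKM with IACS-9571. The hairpins of these 2 copies do not differ at any of their 72 bases (0 differences), so reads inside them cannot be assigned to either copy. They lie at chr20:63919561-63919632 and chr20:63919756-63919827 on the plus strand of GRCh38.p14 and share this sequence, given with the mature arm in capitals:
MIR941-3: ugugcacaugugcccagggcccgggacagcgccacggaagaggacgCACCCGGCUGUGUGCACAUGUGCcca

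RNAs made without a poly(A) tail were also higher with dTRIM24 at 24 h, and here DMSO was higher still. RMRP, the RNA of the ribosomal RNA processing enzyme RNase MRP, had 20.2 FPKM with dTRIM24, 7.25 FPKM with IACS-9571 and 67.1 FPKM with DMSO. RPPH1, the RNA of the tRNA processing enzyme RNase P, had 8.57, 1.95 and 23.5 FPKM. SNAR-A6 had 6.82, 0.0976 and 14.1 FPKM, and 4 near-identical copies of it had 6.52, 0.0975 and 13.5 FPKM each, which cannot be told apart as separate genes. RNA5SP244, annotated as a 5S ribosomal RNA pseudogene, had 98.1 FPKM with dTRIM24, 0.0982 FPKM with IACS-9571 and 189 FPKM with DMSO. In each of these at 24 h, IACS-9571 was lowest, dTRIM24 intermediate and DMSO highest. This order was not seen at 4 h. RMRP then had 1196, 26.2 and 12.7 FPKM with dTRIM24, IACS-9571 and DMSO, and RPPH1 493, 10.7 and 2.01 FPKM. SNAR-A6 had 28.0, 5.51 and 0.0945 FPKM, and RNA5SP244 229, 137 and 174 FPKM. Protein subunits shared by RNase P and MRP moved only with the shift at 24 h: POP7 had 56.7, 39.7 and 41.7 FPKM and RPP25 33.6, 23.7 and 23.4 FPKM.

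Replication-dependent histone mRNAs, which end in a stem-loop, stood near the general shift between the compounds, and DMSO was above both in 9 of 17 kept rows, against 2.91% of all kept rows. Of 72 such rows 17 were kept, 11 of these lay above the all-gene median, and none was past 2-fold in either direction, with a median of 0.31 at 24 h and 2.46 at 4 h. With the GC trend taken out the 24 h median was -0.12, and 6 of 17 were above 0. HIST1H4J had 6.92 FPKM with dTRIM24, 5.41 FPKM with IACS-9571 and 7.59 FPKM with DMSO at 24 h, and 60.8 FPKM with dTRIM24 and 11.96 FPKM with IACS-9571 at 4 h. HIST1H2BK had 12.5, 11.7 and 10.4 FPKM at 24 h. Set against DMSO at 24 h, the list had a median of -0.10 with dTRIM24 and -0.29 with IACS-9571, from the same DMSO column.

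Several of the largest differences among named genes sat in rows that overlap another row or have a copy. HYPK, a chaperone partner of the N-terminal acetyltransferase NatA, had 27.7 FPKM with dTRIM24, 6.29 FPKM with IACS-9571 and 4.49 FPKM with DMSO. The read-through gene SERF2-C15ORF63, which contains HYPK, had 32.4, 42.1 and 43.0 FPKM. Added together the rows had 60.1, 48.4 and 47.5 FPKM, a difference of 0.31 in place of 1.98 and close to the all-gene median. BLOC1S5, a subunit of the complex that builds lysosome-related organelles, had 15.3 FPKM with dTRIM24, 3.71 FPKM with IACS-9571 and 7.85 FPKM with DMSO, and the overlapping EEF1E1-MUTED had 1.55, 10.1 and 6.74 FPKM. With BLOC1S5-TXNDC5 the 3 rows summed to 28.4, 26.2 and 29.3 FPKM, a difference of 0.11. These sums were added after the values were seen.

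Rows were added in the same way at other loci. By arithmetic the FPKM ratio of a sum lies between those of its rows, so a smaller difference of the sum is no separate result. Where a row is far larger than its neighbour, as with H3F3AP4 and EIF3C, it largely sets the sum. Whether reads were divided between such rows was not tested. H3F3A, which encodes the replacement histone H3.3, had 163 FPKM with dTRIM24, 78.7 FPKM with IACS-9571 and 115 FPKM with DMSO, and its processed copy H3F3AP4 had 909, 833 and 868 FPKM. Their sum differed by 0.23 where H3F3A alone differed by 1.04, and at 4 h H3F3A ran the other way (-0.72). NUDT3, a diphosphoinositol polyphosphate hydrolase, had 30.2, 19.8 and 19.2 FPKM and RPS10-NUDT3 10.7, 15.2 and 15.4 FPKM, with sums that differed by 0.22. SLX1A, one of a pair of near-identical copies of a structure-specific nuclease, had 3.31, 5.68 and 13.2 FPKM, and its copy SLX1B 41.6, 25.6 and 24.2 FPKM. Their sum had 44.9, 31.3 and 37.4 FPKM, a difference of 0.51, of the opposite sign to the -0.63 of SLX1A alone. EIF3CL had 4.51, 1.17 and 0.125 FPKM beside 259.6, 194 and 201 FPKM for EIF3C, a translation initiation factor subunit, and their sum differed by 0.43. The separate values of these rows are uncertain. Also past 2-fold higher were PCNA-AS1, antisense to the replication clamp gene, at 4.31 FPKM with dTRIM24, 0.107 FPKM with IACS-9571 and 0.113 FPKM with DMSO, and FAM24B at 4.64, 1.80 and 2.36 FPKM. No source used here states how strand was handled in counting, so reads of PCNA-AS1 and its partner may not be separable. LOC728875, ULK4P2 and the SULT1A3 and SULT1A4 pair, all from duplicated sequence, complete the 12 rows outside the small, tailless and read-through classes. RNA5SP244 and SNHG9, described above, are among these 12.

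**Figure D3:**
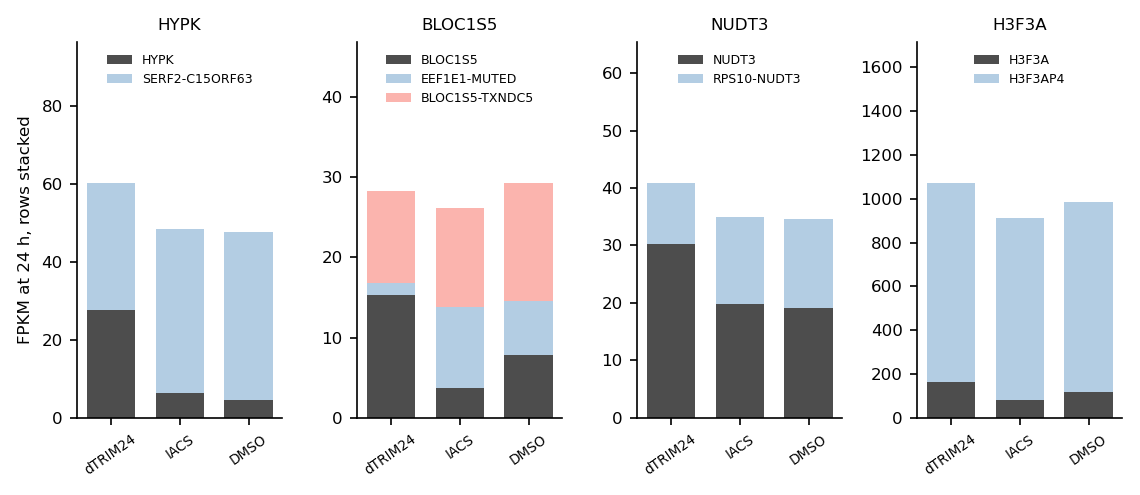
FPKM at 24 h with dTRIM24, IACS-9571 (IACS) and DMSO for 4 loci, with overlapping or copied rows stacked from 0. The dark row at the base of each bar (HYPK, BLOC1S5, NUDT3, H3F3A) is larger with dTRIM24 than with IACS-9571, while the whole bar differs by 0.31, 0.11, 0.22 and 0.23 on the log2(FPKM + 1) scale. By arithmetic the FPKM ratio of a whole bar lies between those of its rows.

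Outside such rows, and outside small and tailless RNAs, no difference relative to the median reached 2-fold. With dTRIM24, 104 rows (0.936%) lay past 1.5-fold above the median and 54 rows (0.486%) past 1.5-fold below it, small RNAs included. MFAP4, which encodes a matrix glycoprotein, had 55.4 FPKM with dTRIM24, 28.3 FPKM with IACS-9571 and 39.9 FPKM with DMSO, 0.67 above the median. MPO, the myeloperoxidase of neutrophil granules, had 7.43, 3.55 and 5.13 FPKM (0.61). MKI67, the proliferation marker Ki-67, had 38.2, 20.8 and 19.1 FPKM (0.57, and 0.60 with the GC trend taken out). In MFAP4 and MPO the DMSO value lay between the compounds, and in MKI67 it lay beside IACS-9571.

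Regulators and signalling genes followed with smaller distances. IRF7, the interferon regulatory factor of antiviral responses, had 5.30 FPKM with dTRIM24, 2.67 FPKM with IACS-9571 and 3.37 FPKM with DMSO (0.50 above the median), and SREBF1, a lipogenic transcription factor, 33.5, 19.2 and 18.3 FPKM (0.49). PLXNB2, a semaphorin receptor, had 18.9, 10.7 and 11.9 FPKM, SOX18, a transcription factor of vessel development, 13.0, 7.33 and 7.52 FPKM, and ARID5A, an mRNA-stabilising protein of inflammatory transcripts, 13.3, 7.50 and 7.57 FPKM. TONSL, a reader of newly made chromatin at replication forks, had 17.8, 10.2 and 9.94 FPKM. SPC24, of the kinetochore NDC80 complex, had 13.3, 7.63 and 8.31 FPKM, and MZT2A, of the gamma-tubulin complex, 76.1, 45.3 and 52.4 FPKM. METRNL, a secreted cytokine-like protein, had 26.6, 15.4 and 19.4 FPKM, and SRPK3, a kinase of splicing proteins, 5.81, 3.08 and 3.80 FPKM. P2RY11, a purine receptor that overlaps a read-through gene, had 8.45, 4.64 and 3.62 FPKM, and the rest of the 25 named in this direction were FAM212A, C6orf136, LOC391322 and the duplicated PKD1P1 and WASH5P. With the GC trend taken out these kept their direction, with values between 0.23 for SOX18 and 0.51 for PKD1P1 where a GC value was available.

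Few genes stood lower with dTRIM24 than with IACS-9571. CD38, a NAD-consuming surface enzyme known as a retinoid-inducible gene of myeloid cells, had 3.92 FPKM with dTRIM24, 6.96 FPKM with IACS-9571 and 5.70 FPKM with DMSO, a difference of -0.70 and -0.97 relative to the median. CA2, a carbonic anhydrase, had 18.0, 26.2 and 8.83 FPKM (-0.52, and -0.79 relative to the median), so both compounds stood above DMSO and IACS-9571 the higher. With the GC trend taken out CD38 was at -0.94 and CA2 at -0.77. At 4 h neither gene differed between the compounds by more than 0.04. CD38 differs from CA2 in that DMSO lay between the compounds.

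The next genes differed by less than 0.2 before the shift is subtracted. FUCA1, a lysosomal fucosidase, had 12.6 FPKM with dTRIM24, 14.4 FPKM with IACS-9571 and 11.2 FPKM with DMSO, -0.45 relative to the median. N6AMT1, a methyltransferase, had 7.33, 8.30 and 7.59 FPKM, BEX1, an adaptor protein, 347, 368 and 293 FPKM, and SRGN, the proteoglycan core of myeloid granules, 1044, 1095 and 1328 FPKM. NDRG1 and ALDOC, both known as hypoxia-induced genes, had 7.72, 8.15 and 6.004 FPKM and 5.71, 5.92 and 3.95 FPKM, and TLR2, a receptor for bacterial lipoproteins, 6.57, 6.90 and 7.06 FPKM. These genes were near parity between the compounds and are low only against the general shift. The other 15 named on this side, with AP1S2, a clathrin adaptor subunit, among them, lay between -0.42 (SMIM14) and -0.30 relative to the median.

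**Figure D4:**
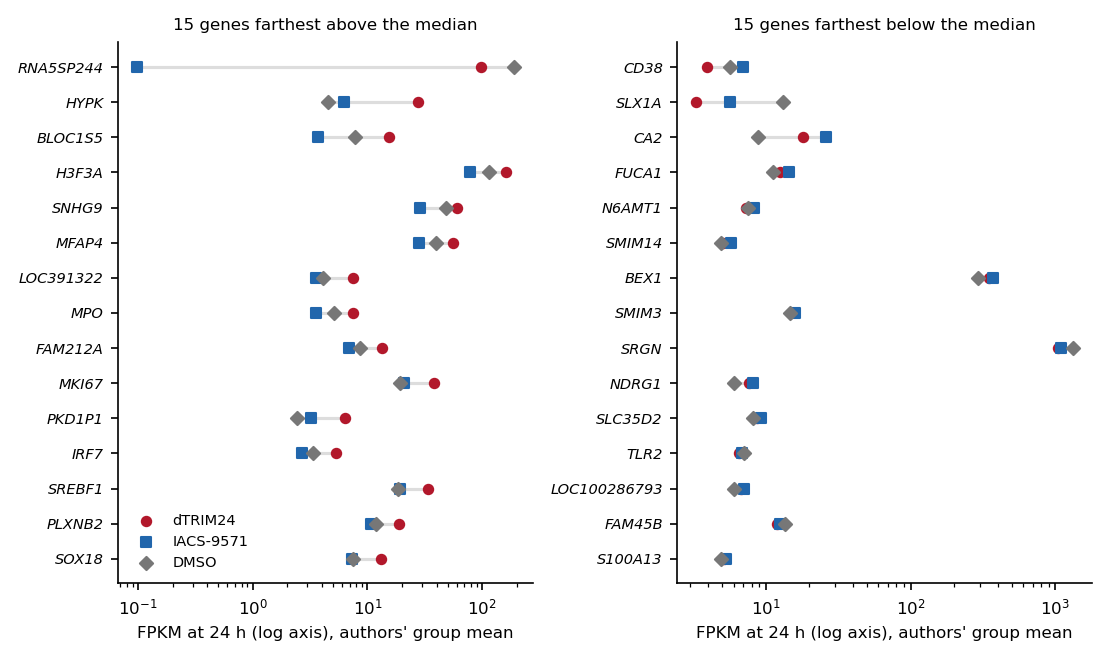
FPKM at 24 h (log axis, the authors' group means) for the 15 genes farthest above (left) and below (right) the median difference of all genes, small RNAs, tailless histone and related RNAs and read-through genes left out. Red circles are dTRIM24, blue squares IACS-9571 and grey diamonds DMSO. At left, circles lie to the right of squares in all 15 genes, while at right CD38, CA2 and SLX1A, whose sum with its copy differs by 0.51, are set apart and the other circles and squares nearly coincide.

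The position of DMSO was asked over the 8150 rows outside those classes with at least 5 FPKM. DMSO lay between the compounds with IACS-9571 lowest in 60.6% of them, below both compounds in 37.3% and above both in 2.05%. It was nearer to IACS-9571 in 85.4% of them. Of the 272 that were past 1.5-fold higher with dTRIM24 as deposited, it was nearer to IACS-9571 in 263. These 272 were chosen by that same difference, and the dTRIM24 column stood higher as a whole, so this count is no separate support. For most of the 8150 rows the difference between the compounds was mainly a distance of dTRIM24 from the other columns.

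Genes of the ATF4 response lay above the general shift almost throughout. ATF4 is a transcription factor translated when the kinase-driven integrated stress response slows general translation, and its targets import and make amino acids. Of 24 listed genes 23 were kept, 22 of them lay above the all-gene median, and 0 were past 2-fold. Their median difference was 0.44, or 0.17 relative to the median, and with the GC trend taken out it was 0.18 with 21 of 23 above 0, where 51.8% of all 10303 rows with a GC value are. On that scale the lists of DNA replication (39 of 41), splicing factors (33 of 35), proteasome (29 of 31) and mitosis (37 of 40) had higher shares, with smaller medians. ATF4 itself had 465 FPKM with dTRIM24, 325 FPKM with IACS-9571 and 350 FPKM with DMSO. At 4 h the median of the list was -0.01.

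Within the list, regulators, transporters and enzymes behaved alike. TRIB3, a pseudokinase that restrains ATF4, had 21.4 FPKM with dTRIM24, 13.7 FPKM with IACS-9571 and 15.2 FPKM with DMSO, and DDIT3 (CHOP), a death-linked transcription factor, 19.3, 13.4 and 12.6 FPKM. SESN2, a leucine sensor, had 9.85, 6.11 and 6.44 FPKM. EIF4EBP1, a translation repressor, had 187, 121 and 123 FPKM. The amino acid transporter subunits SLC7A5 and SLC3A2 had 111, 70.0 and 75.4 FPKM and 117, 82.9 and 89.7 FPKM. Among enzymes, ASNS, the asparagine synthetase, had 84.5, 61.9 and 73.5 FPKM, CHAC1, which degrades glutathione, 4.97, 2.56 and 2.95 FPKM, and CBS, of transsulfuration, 24.8, 16.0 and 17.4 FPKM. The serine synthesis enzymes PHGDH and PSAT1 had 134, 89.1 and 105 FPKM and 223, 161 and 194 FPKM. The 1 member below the median was SLC7A11, the cystine transporter, with 8.24, 6.82 and 5.48 FPKM. DMSO lay between the compounds, with IACS-9571 lowest, in 17 of the 23 (54.3% of all kept rows), and below both in the other 6.

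Promoters of this list were searched because ATF4 binds composite sites of CEBP and ATF type. The motif TGATGNAA was looked for on both strands between 250 bases before and 50 bases after RefSeq gene starts (GRCh38.p14). It was present in 5 of 20 kept list genes with a window (25%), ASNS, ATF3, CHAC1, SLC3A2 and SLC7A1, and in 1217 of 27305 genes in all (4.46%). Windows of 2 of them follow with the motif in capitals, ASNS at chr7:97872359-97872658 on the minus strand and CHAC1 at chr15:40953221-40953520 on the plus strand; a match is a description and not a bound site. They are shown because these genes carry the motif and differed between the compounds by 0.44 (ASNS) and 0.74 (CHAC1). ATF3, SLC3A2 and SLC7A1 differed by 0.40, 0.49 and 0.40, beside a list median of 0.44 and a median of 0.28 for all genes. The list was drawn up from genes tied to ATF4, so its share with the motif says nothing about these data.
ASNS: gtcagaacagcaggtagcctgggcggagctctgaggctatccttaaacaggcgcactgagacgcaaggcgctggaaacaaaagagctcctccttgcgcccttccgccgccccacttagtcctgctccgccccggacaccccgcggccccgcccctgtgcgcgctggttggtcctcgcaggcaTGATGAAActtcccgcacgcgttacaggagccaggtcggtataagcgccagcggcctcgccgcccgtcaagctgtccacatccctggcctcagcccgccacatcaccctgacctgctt
CHAC1: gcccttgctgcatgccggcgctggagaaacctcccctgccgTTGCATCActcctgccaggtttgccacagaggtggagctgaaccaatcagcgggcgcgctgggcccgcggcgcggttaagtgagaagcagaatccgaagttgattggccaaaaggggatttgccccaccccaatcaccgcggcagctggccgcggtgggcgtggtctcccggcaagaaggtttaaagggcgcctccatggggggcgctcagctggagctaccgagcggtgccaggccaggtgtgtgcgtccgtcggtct

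Pathways next to ATF4 stood nearer to the general shift. Of 24 kept serine, one-carbon and nucleotide synthesis genes 16 lay above the all-gene median, with a median difference of 0.30. SHMT2, the mitochondrial serine hydroxymethyltransferase, had 286 FPKM with dTRIM24, 206 FPKM with IACS-9571 and 230 FPKM with DMSO, and ALDH1L2, a mitochondrial folate enzyme, 30.9, 21.9 and 24.0 FPKM. Of 20 aminoacyl-tRNA synthetases 13 lay above it (median 0.34, and 17 of 20 above 0 once the GC trend was removed), with MARS at 138, 100.3 and 106 FPKM. Of 20 genes of the endoplasmic reticulum unfolded protein response 13 lay above it (median 0.31). CRELD2, a reticulum protein induced by misfolding, had 10.6, 6.84 and 7.87 FPKM, while DNAJB9, a reticulum chaperone, had 7.99, 7.69 and 7.52 FPKM. Of 20 cytosolic heat shock genes 16 lay above it (median 0.33), among them HSPB1, a small heat shock protein, at 227, 147 and 167 FPKM, and SERPINH1, a collagen chaperone, at 15.4, 9.46 and 10.4 FPKM. Of 31 proteasome subunits 22 lay above it (median 0.32), and 29 of 31 were above 0 without the GC trend. PSMB4, a core subunit, had 403, 302 and 333 FPKM.

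Genes of DNA replication and of mitosis also lay above the shift. Of 41 replication genes 34 lay above the all-gene median, with a median difference of 0.37, and 39 of 41 were above 0 with the GC trend taken out (median 0.08). CDT1, which loads the replicative helicase, had 38.1 FPKM with dTRIM24, 24.4 FPKM with IACS-9571 and 25.6 FPKM with DMSO. UHRF1, which guides maintenance methylation of DNA, had 81.2, 53.3 and 51.6 FPKM, CHAF1A, a histone chaperone at the fork, 35.3, 23.2 and 22.2 FPKM, and LIG1, the ligase that seals Okazaki fragments, 33.2, 22.0 and 21.8 FPKM. DNMT1, the maintenance methyltransferase, had 79.5, 53.7 and 53.1 FPKM. In 34 of the 41 genes DMSO lay between the compounds with IACS-9571 lowest, and in 7, such as UHRF1 and CHAF1A, it lay below both. The first order held in 54.3% of all kept rows and is not particular to this list. It held in 30 of 31 proteasome subunits and 78 of 82 cytosolic ribosomal protein genes, but in 6 of 24 sterol synthesis genes.

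Of 40 mitosis genes 33 lay above the all-gene median (median 0.34), and 37 of 40 were above 0 with the GC trend taken out (median 0.10). FOXM1, a transcription factor of the late cell cycle, had 27.7 FPKM with dTRIM24, 17.6 FPKM with IACS-9571 and 19.4 FPKM with DMSO. CENPF and CENPE, proteins of the kinetochore, had 28.8, 18.4 and 15.3 FPKM and 5.69, 3.40 and 2.75 FPKM. Of 15 kept cyclin, CDK inhibitor and RB family genes 9 lay above the median. CCND3, a D-type cyclin, had 114, 75.8 and 93.1 FPKM, and the CDK inhibitors CDKN1A and CDKN2D had 84.7, 58.5 and 71.1 FPKM and 8.60, 5.49 and 7.35 FPKM. These are among the members farthest above, and the median of the list was 0.04 relative to the median of all genes, with a lowest member at -0.14. At 4 h the medians of the replication and mitosis lists were -0.04 and -0.05.

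Cytosolic ribosomal protein genes lay mostly under the all-gene median, and other growth lists mostly above it; no difference between lists was tested. Of 82 kept cytosolic ribosomal protein genes 32 lay above the all-gene median (median 0.25), and 26 of 81 were above 0 with the GC trend taken out. RPL8 had 3449 FPKM with dTRIM24, 2442 FPKM with IACS-9571 and 2529 FPKM with DMSO, while RPL39 had 4283, 4025 and 4246 FPKM. Of 75 mitochondrial ribosomal protein genes 49 lay above the median (median 0.34), with MRPL4 at 101, 66.8 and 67.5 FPKM. Of 80 nuclear genes of oxidative phosphorylation 50 did (median 0.31), with NDUFB7, of complex I, at 263, 168 and 183 FPKM. Of 35 ribosome biogenesis genes 22 did (median 0.32). NOP56, a core protein of C/D box particles, had 185, 135 and 122 FPKM, and NOLC1, a nucleolar assembly factor, 139, 101 and 94.8 FPKM. MYC, which drives many of these genes, had 259, 207 and 168 FPKM, a difference of 0.32 between the compounds.

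Fatty acid genes lay on both sides of the shift, more of them above, and sterol genes were centred on it; the difference between these lists was not tested. Of 12 kept fatty acid synthesis and desaturation genes 8 lay above the all-gene median, with a median difference of 0.40 (0.09 with the GC trend taken out). FASN, the fatty acid synthase, had 56.1 FPKM with dTRIM24, 33.5 FPKM with IACS-9571 and 31.8 FPKM with DMSO. The desaturases FADS2 and SCD had 37.0, 22.9 and 15.1 FPKM and 367, 259 and 236 FPKM. Of the others, ELOVL6 and ELOVL5, elongases, and ACSS2, an acetyl-CoA synthetase, lay below the median, at -0.26, -0.09 and -0.09 relative to it. Of 24 kept sterol synthesis genes 12 lay above the median (median 0.28). LSS, the lanosterol synthase, had 14.2, 9.17 and 7.99 FPKM and MVD, of the mevalonate pathway, 12.9, 8.53 and 7.38 FPKM, whereas SQLE, the squalene epoxidase, had 27.7, 26.2 and 21.3 FPKM. At 4 h, dTRIM24 was the lower in 23 of these 24 sterol genes (median -0.26). At 24 h the list sat at the all-gene median.

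The myeloid program varied by gene class. Of 14 kept neutrophil granule genes 10 lay above the all-gene median, with a median difference of 0.48, the highest of the mRNA lists with 10 or more kept members, but 0.08 with the GC trend taken out. PRTN3 and ELANE, proteases of azurophil granules, had 302 FPKM with dTRIM24, 192 FPKM with IACS-9571 and 255 FPKM with DMSO, and 926, 619.8 and 685 FPKM. CTSG, the cathepsin of the same granules, had 1299, 939.8 and 1096 FPKM, and PRSS57, a related protease, 95.0, 56.2 and 75.5 FPKM. LYZ, the lysozyme, had 343, 302 and 377 FPKM and with SRGN stood lower than in DMSO. In 12 of the 14, DMSO lay between the compounds with IACS-9571 lowest, as in 54.3% of all kept rows. Of 18 kept myeloid transcription factors 9 lay above the median. SPI1 (PU.1), the master regulator of myeloid fate, had 75.5, 51.6 and 55.4 FPKM, and CEBPA had 151, 118 and 115 FPKM. Of 22 kept monocyte genes 13 did, with CYBA, of the NADPH oxidase, at 463, 296 and 345 FPKM and CD36, a scavenger receptor, at 10.4, 7.09 and 10.9 FPKM.

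Genes of the leukaemia program followed the shift. Of 11 kept HOXA, MEIS1 and PBX3 genes 9 lay above the all-gene median, with relative values of at most 0.10 and a median difference of 0.31. HOXA9 had 31.8 FPKM with dTRIM24, 25.4 FPKM with IACS-9571 and 25.9 FPKM with DMSO, and its partner MEIS1 had 14.3, 11.3 and 10.4 FPKM. Of 16 cofactors of MLL fusions 10 lay above the median (0.39, and 0.04 without the GC trend), with DOT1L, the H3K79 methyltransferase, at 20.4, 13.1 and 12.4 FPKM. FLT3, the mutated receptor kinase of this line, had 87.2, 79.8 and 84.0 FPKM, and 10 of 20 genes of its signalling list lay above the median. Of 7 genes of the BET list 4 did, with BRD2 at 91.4, 65.0 and 58.5 FPKM. Of 14 kept BCL2 family genes 7 did, with the death-promoting BAX at 77.1, 54.8 and 57.2 FPKM and the protective BCL2 at 16.1, 14.8 and 16.0 FPKM.

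Interferon and MHC class II genes lay mostly below the shift. Of 19 kept interferon-stimulated genes 7 lay above the all-gene median (median 0.21), and 5 of 19 were above 0 with the GC trend taken out. ISG15, a ubiquitin-like modifier, had 13.2 FPKM with dTRIM24, 8.74 FPKM with IACS-9571 and 10.1 FPKM with DMSO. IRF7 was the member farthest above. Of 7 kept MHC class II genes 2 lay above the median (0.18), with HLA-DRA at 8.02, 7.12 and 7.04 FPKM. Of 14 NF-kB and inflammatory genes 7 did (0.28): NFKBIB, an inhibitor of the factor, had 35.2, 21.4 and 20.1 FPKM and TNF 15.9, 15.1 and 15.1 FPKM. HLA genes are polymorphic and have close copies, so their counts are uncertain.

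Stimulus-driven factors were divided. Of 16 kept immediate early genes 8 lay above the all-gene median (0.27), and their median was -0.10 with the GC trend taken out. JUNB and JUND, subunits of AP-1, had 39.7 FPKM with dTRIM24, 25.3 FPKM with IACS-9571 and 26.4 FPKM with DMSO, and 103, 66.8 and 82.8 FPKM. Of 19 kept p53 targets 10 lay above the median (0.29), with CDKN1A and SESN2 among the highest. Of 10 kept retinoic acid genes 6 did (0.31): the receptors RARA and RXRA had 11.2, 7.66 and 7.18 FPKM and 31.3, 22.1 and 22.6 FPKM, and CD38 was the farthest below. TRIM24 is known from mouse liver as a corepressor of the retinoic acid receptor alpha.

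Oxygen and metal responses lay at or under the shift. Of 24 kept HIF target and glycolysis genes 12 lay above the all-gene median (0.28), with ALDOA, a glycolytic aldolase, at 825 FPKM with dTRIM24, 582 FPKM with IACS-9571 and 641 FPKM with DMSO and P4HA1, a collagen prolyl hydroxylase subunit, at 24.5, 23.5 and 23.6 FPKM. Of 7 kept metallothionein list genes 1 did (0.17), with MT1F at 50.02, 47.1 and 58.4 FPKM. Of 19 kept NRF2 genes 9 did (0.25). HMOX1, the haem oxygenase, had 2.37, 1.86 and 1.42 FPKM, with a difference of 0.24 where at 4 h it was -2.56. Of 25 lysosome and autophagy genes 16 did (0.35), with CTSD, the cathepsin, at 28.2, 18.7 and 19.4 FPKM and TFEB, the lysosomal transcription factor, at 14.6, 9.72 and 8.74 FPKM.

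Families of regulators lay on either side of the median. Of 346 kept ZNF genes 145 lay above it (0.26), of 42 USP deubiquitinases 11 (0.23), and of 27 KLHL and KBTBD cullin ligase adaptors 5 (0.19). With the GC trend taken out the shares above 0 were 163 of 342, 24 of 42 and 7 of 27, so the deubiquitinases no longer stood low and the KLHL and KBTBD genes still did. Of 37 kept genes with a TRIM name, TRIM24, TRIM28 and TRIM33 included, 19 lay above the median. Of 35 splicing factors 21 did (0.33), with 33 of 35 above 0 without the GC trend, and SF3A2, of the U2 particle, had 119 FPKM with dTRIM24, 77.9 FPKM with IACS-9571 and 80.6 FPKM with DMSO. Of 31 Mediator genes 16 did (0.28), with MED18, a head module subunit, at 12.3, 7.41 and 5.35 FPKM. Of 37 histone and DNA modifying enzymes 28 did (0.34), with EHMT2, a histone H3K9 methyltransferase, at 29.7, 21.2 and 19.1 FPKM.

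**Figure D5:**
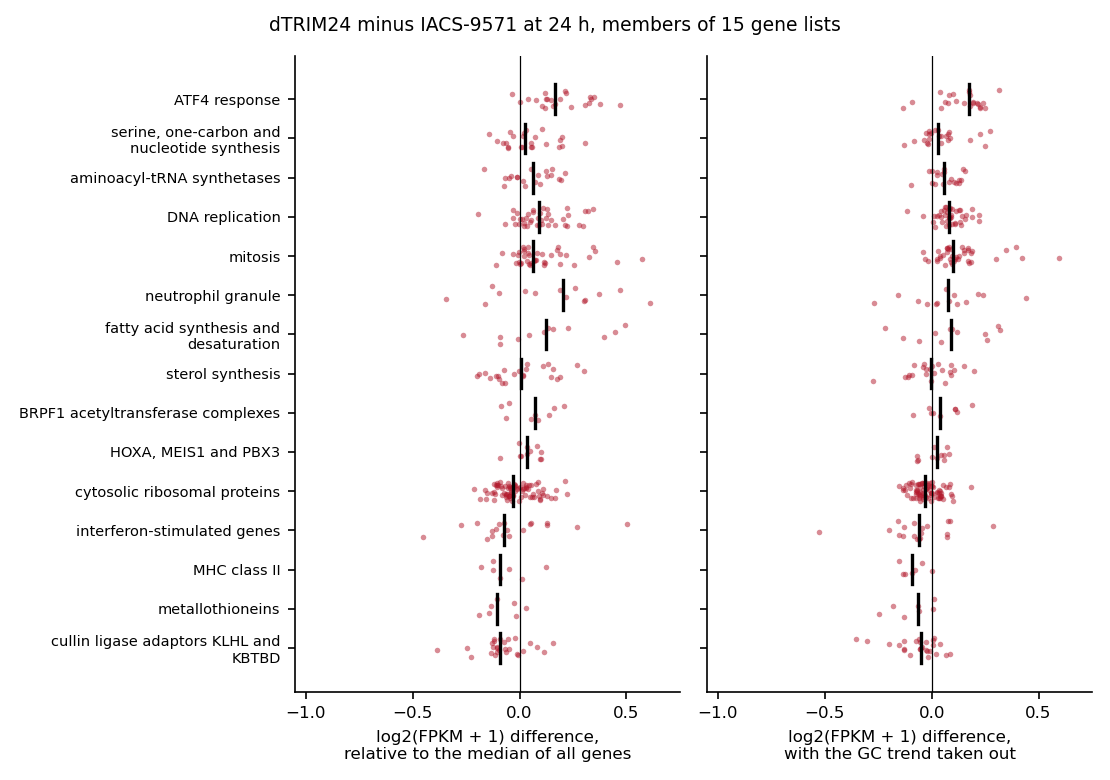
Difference of log2(FPKM + 1), dTRIM24 minus IACS-9571 at 24 h, for kept members of 15 gene lists, relative to the median of all genes (left) and with the GC trend taken out (right). Points are genes and black bars list medians; vertical jitter has no meaning. Single genes lie far out, such as MKI67 at 0.57 in the mitosis list at left, and the ATF4 list has its bar farthest right at right, at 0.18, with 21 of 23 points above 0.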

How the data were processed

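The authors' deposited table used here gives FPKM as 1 mean for each group; values per sample were not analysed here, so the planned sample tests were not run. TopHat2, Cuffnorm and the build hg19 are named per the submitters' processing notes, which give neither versions nor roles; no source used here states the annotation, strand handling or read depth. Groups come from titles and time points. Differences were taken of log2(FPKM + 1), dTRIM24 minus IACS-9571, over rows with at least 1 FPKM in either column, without the 92 spike-in rows.

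GC content came from GENCODE transcripts of another build, matched by symbol for 92.7% of rows, and its trend was a polynomial of degree 3. Named were the target genes, up to 15 rows each way past 2-fold and up to 25 relative to the median (at least 5 FPKM in the higher group, small RNAs up to 6 each way), and up to 4 members per list. Named outside that rule, after their values were seen, were copies, host genes, miRNA hairpins and rows under 5 FPKM. So were ACSS2, ATF4, ASNS, CBS, CHAC1, CENPE, CTSG, CUL2, DDIT3, ELOVL5, ELOVL6, HMOX1, LYZ, MYC, RBX1, SLC3A2, SLC7A11, SNORD76, SNORD87 and TCEB1. Members and lists were chosen with earlier results of these data known.

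The steps were checked on simulated data. Calculations used Python (3.11.15) with pandas (2.3.3), numpy (2.4.6) and scipy (1.17.1), and figures matplotlib (3.10.9).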

Additional observations from a re-analysis of the deposited data

How the results depend on the processing

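No paired analysis was possible because the table holds 1 mean per group, and for the same reason no replicate could be left out. As deposited, the counts past 2-fold (99 higher, 30 lower; 76 and 32 relative to the median) stayed within 1.5 times of these values with pseudocounts of 0.1 and 0.5, no filter, a floor of 5 FPKM, quantile normalization and rescaling to the spike-ins. The other settings moved them. A 1.5-fold threshold gave 437 higher, and 54 lower relative to the median. Leaving out small RNAs gave 23 higher and 2 lower (14 and 2 relative to the median), and leaving out tailless and read-through rows as well gave 12 and 0 (6 and 0). Without the GC trend 65 were higher, over fewer rows. The median difference of 0.28 became 0.0907 with no filter (which adds the rows under 1 FPKM), -0.0258 with quantile normalization and 0.00377 without the GC trend; the last 2 settings centre the data by construction. Of 32 named genes past 2-fold, 30 still were with quantile normalization, as were 23 of 26 without the GC trend. Adding the rows of one locus, an alternative added after seeing the data, turned EEF1E1-MUTED from -2.13 to 0.11 with its neighbours. The main limit is that spread between samples and depth are unknown, so no difference above can be set against replicate error.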

Other observations

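Further gene classes were described by the same counts. Of 17 small nucleolar RNA host genes 10 lay above the all-gene median (median difference 0.40), and 13 of 17 were above 0 with the GC trend taken out. SNHG12, host of SNORD99, had 12.5 FPKM with dTRIM24, 7.78 FPKM with IACS-9571 and 4.79 FPKM with DMSO, and DANCR, a long noncoding host RNA, had 114, 79.5 and 93.6 FPKM. Of 23 genes of RNA polymerase III transcription 15 lay above the median (0.36, and 0.02 without the GC trend), with BDP1, a subunit of TFIIIB, at 7.79, 5.38 and 4.71 FPKM and MAF1, the repressor of that polymerase, at 79.4, 58.4 and 59.0 FPKM. Of 12 RNA polymerase II subunits 8 did (0.34), with POLR2A, the largest subunit, at 39.3, 27.4 and 28.8 FPKM. In all 12 of these DMSO lay between the compounds with IACS-9571 lowest, as in 54.3% of all kept rows. Of 15 nonsense-mediated decay genes 10 did (0.35), with UPF1, the helicase of that pathway, at 33.5, 23.5 and 22.3 FPKM. Of 11 genes that form histone mRNA ends 5 did (0.27), and of 17 kept genes of replacement histones and H3.3 chaperones 13 did (0.36), with H2AFX, the variant phosphorylated at DNA breaks, at 44.6, 29.6 and 27.2 FPKM.

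Broad families stayed at the shift. Of 155 kept solute carriers 73 lay above the median (0.26), with SLC25A1, the mitochondrial citrate carrier, at 43.3 FPKM with dTRIM24, 27.5 FPKM with IACS-9571 and 27.2 FPKM with DMSO and SLC16A3, a lactate exporter, at 57.7, 37.1 and 40.2 FPKM. Of 86 antisense and LINC rows 40 did (0.25). Of 14 kept genes of MHC class I presentation 9 did (0.32), though 5 of 14 were above 0 with the GC trend taken out. Housekeeping genes held to the shift too, 9 of 14 above the median (0.33), with GAPDH at 4032, 2908 and 3166 FPKM and TFRC, the transferrin receptor, at 85.1, 77.4 and 85.4 FPKM.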
